A study of Mus musculus with 10 samples.

Results

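RUNX1 binding around the matricellular genes Ccn1 and Ccn2 was described from RUNX1 chromatin immunoprecipitation sequencing (ChIP-seq) peak lists. All peaks were taken whose summit, the position of highest enrichment, lay in a window of 110 kb around either gene. The windows ran from 145300000 to 145410000 on chromosome 3 for Ccn1 and from 24420000 to 24530000 on chromosome 10 for Ccn2 (build GRCm39). Overlapping peaks of the lists were merged into sites, numbered within each window from the lower coordinate. The windows held 43 peaks in 20 sites, 13 at Ccn1 and 7 at Ccn2, of 64286 merged sites in the genome.

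The cells were MLE cells, mouse large biliary epithelial cells, near confluence. They received TGFβ at 10 ng/mL overnight or vehicle, with 3 RUNX1 ChIP libraries per treatment. Replicates 1 and 2 of each treatment were from batch 1 and replicate 3 from batch 2. The 4 input libraries were not analysed here. No allele, further agent or age is given in the labels, and the nature of the vehicle is not described there. It is not given either whether the replicates of batch 1 were grown separately, so p-values measure the spread between libraries, which may be technical. Peak lists hold no expression, so the biliary identity of the cells could not be checked against marker genes.

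CCN1 (also CYR61) and CCN2 (also CTGF) are secreted matricellular proteins of the CCN family, which bind integrins and heparan sulphate proteoglycans and influence adhesion, proliferation and matrix deposition. Both genes are rapidly induced and are well-known targets of YAP and TAZ acting through TEAD factors. CCN2 is also a classical TGFβ-induced gene linked to fibrosis, and CCN1 has been linked to cholangiocyte proliferation in the ductular reaction. RUNX1 is a DNA-binding factor that acts with its partner CBFβ and can cooperate with SMAD proteins, the mediators of TGFβ signalling.

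The position of the genes within the windows follows from their flanks of about 50 kb, which leave the central 10 kb for each gene. No annotation of GRCm39 was used here, so no site was assigned to a promoter, exon, intron or UTR. By gene order in a table of GRCm38, the protein-coding neighbours of Ccn1 are Znhit6 on the lower-coordinate side and Ddah1 on the higher. Those of Ccn2 are Moxd1 on the lower side and Enpp1 on the higher.

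A motif search was planned for the promoters of both genes, but the promoter set used held no entry for Ccn2. The RefSeq promoter of Ccn1 is therefore shown alone. It comprises the 250 bases before the start site on the minus strand (GRCm38.p6, chr3:145649986-145650235), a build whose coordinates cannot be set against those of the peaks. Capitals mark the match to a TEAD motif.
Ccn1 promoter: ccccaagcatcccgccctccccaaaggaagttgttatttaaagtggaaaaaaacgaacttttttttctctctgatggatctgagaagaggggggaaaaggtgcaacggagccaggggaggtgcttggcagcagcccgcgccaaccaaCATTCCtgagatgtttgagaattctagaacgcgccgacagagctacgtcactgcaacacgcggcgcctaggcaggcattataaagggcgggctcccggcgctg
Both strands were searched. The TEAD motif GGAATG matched 1 time, on the opposite strand, ending 98 bases before the start site. It was present in 12.6% of 32851 promoters of this length. No match was found to the RUNX motifs TGTGGT and TGCGGT, which were present in 14.0% and 5.10% of promoters. The SMAD motif CAGAC (42.2% of promoters), the AP-1 motif TGANTCA (6.75%) and the SRF CArG box (1.47%) had none either. These counts describe letters in this stretch and not bound sites. The promoter of Ccn2 could not be searched.

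Each peak has a fold enrichment at its summit, a value of the authors' peak caller within its own list. From this fold and the p-value, the count of fragments that overlap at a summit, and the background it was compared with, were recovered. Values are given in the order of replicates 1, 2 and 3 of a treatment, unless named. Intervals on fragments are exact Poisson 95% intervals and, like those on fold derived from them, cover counting error only. Read totals are unknown from the lists. The lists held 14733 to 42050 peaks, and their lowest background was 10.4 to 11.8 fragments. Of the 43 member peaks, 38 lay within 1% of the lowest background of their list. The weakest peaks called over that background had 21 to 25 fragments in the 6 lists, so a site not called in a library was below the calling threshold and not necessarily unbound.

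**Figure D1:**
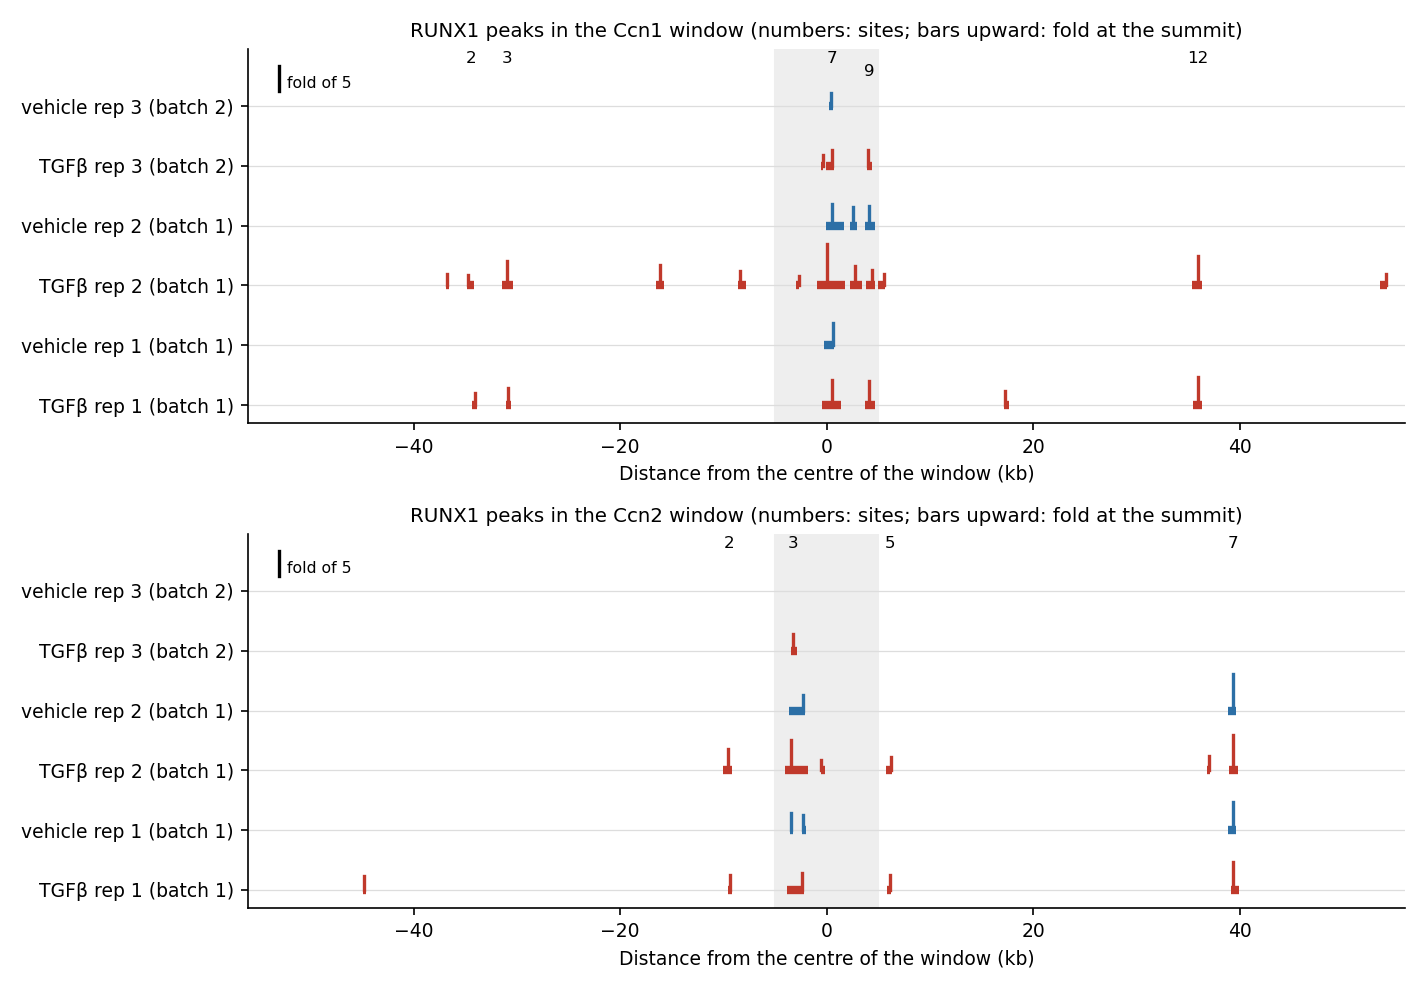
Peaks of each library in the Ccn1 window (top) and the Ccn2 window (bottom) against distance from the centre of the window in kb. Thick horizontal lines are peak intervals, vertical lines stand at summits with a height in proportion to the fold (scale bar, fold of 5), grey marks the central 10 kb, and red and blue are TGFβ and vehicle. Site 7 of Ccn1 was called in all 6 libraries, while site 7 of Ccn2 was called in the 4 libraries of batch 1.

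Every member site was called in at least 1 TGFβ library, and 15 of the 20 had no vehicle call. At Ccn1, 10 of 13 sites had no vehicle call, and at Ccn2 5 of 7. Of all merged sites, 51.6% had no vehicle call and 14.6% no TGFβ call. Calls in a single library made up 10 of the 20 sites, close to the 50% of all merged sites. Of these 10, 8 came from TGFβ replicate 2, the longest list, and 2 from TGFβ replicate 1. Sites called in TGFβ replicate 2 alone were thus 8 of all 20 member sites, against 20.1% of all merged sites. No member site was called in all 3 TGFβ and no vehicle libraries, a pattern met by 0.619% of merged sites, and none in all vehicle and no TGFβ libraries (0.0109%). The pattern of both batch 1 TGFβ libraries and no vehicle library was met by 5 of 20 member sites against 15.9% of merged sites. Calls in 4 or more libraries were met by 4 of 20, against 19.5%.

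Peak numbers in the windows were then compared between treatments. The Ccn1 window held 6, 12 and 3 peaks under TGFβ, and 1, 3 and 1 under vehicle. The groups met at 3 peaks, where TGFβ replicate 3 and vehicle replicate 2 were equal. Means were 7.0 ± 4.58 peaks under TGFβ and 1.67 ± 1.15 under vehicle (SD, n = 3). TGFβ was higher in 3 of 3 pairs of libraries matched by batch and title wording, by 5, 9 and 2 peaks. The difference of 5.33 peaks did not pass 0.05 (two-sided exact permutation p = 0.2, smallest possible 0.1). Within batches the exact p was 0.167, the smallest possible. In batch 1 alone the difference was 7 peaks (exact permutation p = 0.333, the smallest for 2 against 2). Batch 2, with 1 library per treatment, differed by 2 peaks and has no test.

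The Ccn2 window held 5, 6 and 1 peaks under TGFβ, and 3, 2 and 0 under vehicle. TGFβ replicate 3 lay below both batch 1 vehicle libraries, so the groups overlapped. Means were 4.0 ± 2.65 under TGFβ and 1.67 ± 1.53 under vehicle (SD, n = 3), a difference of 2.33 (two-sided exact permutation p = 0.3). TGFβ was higher in 3 of 3 pairs, by 2, 4 and 1 peaks (exact within-batch permutation p = 0.167). In batch 1 alone the difference was 3 peaks (exact permutation p = 0.333).

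Both windows thus gave more peaks under TGFβ in every matched pair, without separation of the groups over all libraries. The TGFβ list was also the longer over the genome in each pair. It held 33601, 42050 and 18790 peaks, against 14733, 21602 and 16265 under vehicle. The share of all windows with more peaks under TGFβ in every pair was not computed. Among 14763 windows of this width that tile the chromosomes and hold a peak, 2.67% had more peaks in every TGFβ than in every vehicle library and 0.0271% fewer. Neither member window belonged to these. The 12 peaks of TGFβ replicate 2 at Ccn1 were matched or exceeded by 3.02% of the tiling windows in that list, and its 6 peaks at Ccn2 by 16.1%. The 3 peaks of vehicle replicate 1 at Ccn2 were matched or exceeded by 12.5% in its list.

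The lengths of the lists moved with these differences. Each list was then limited to its 14733 best peaks by p-value, which left vehicle replicate 1 whole. The lowest −log10 p kept was 12.6, 18.0 and 5.28 under TGFβ and 3.44, 7.33 and 4.47 under vehicle. A call lost from 1 list can therefore be stronger than a call kept in another. In the limited lists the Ccn1 window held 3, 3 and 2 peaks under TGFβ and 1, 3 and 1 under vehicle. The difference at Ccn1 fell to 1 peak (exact permutation p = 0.4). At Ccn2 the limited lists held 1, 2 and 1 peaks under TGFβ and 3, 2 and 0 under vehicle. There the difference turned to -0.33 peaks (exact permutation p = 1). Leaving out TGFβ replicate 2 from the full lists lowered the difference to 2.83 peaks at Ccn1 and 1.33 at Ccn2. Leaving out vehicle replicate 3 lowered it to 1.5 at Ccn2, while leaving out TGFβ replicate 3 raised it to 7.33 at Ccn1 and 3.83 at Ccn2.

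**Figure D2:**
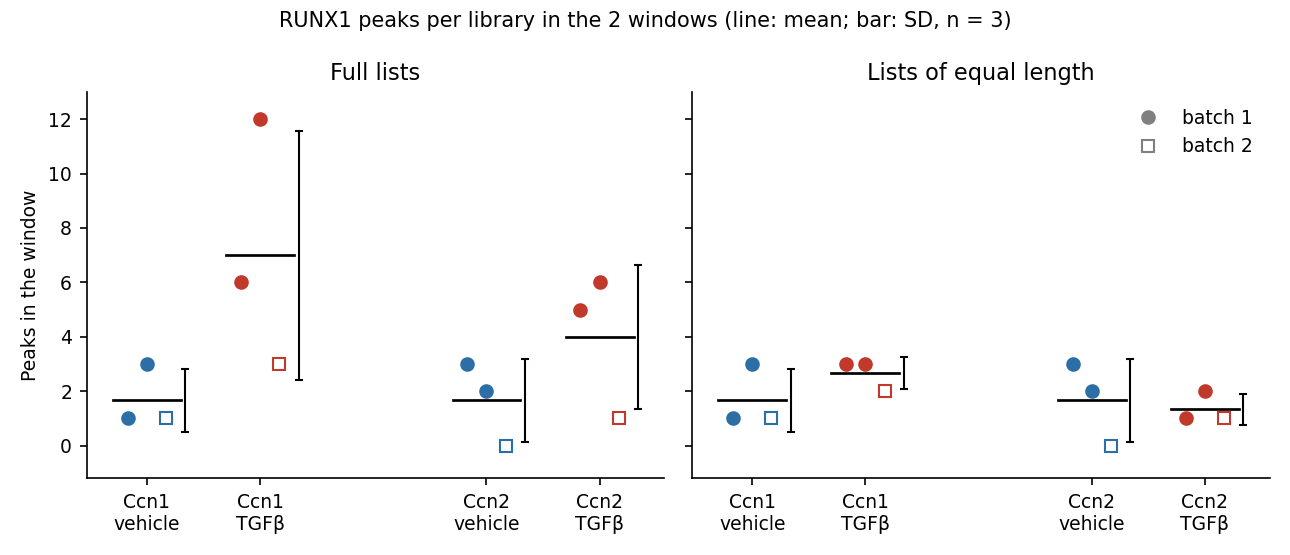
Number of peaks per library in the Ccn1 and Ccn2 windows, in the full lists (left) and in lists limited to 14733 peaks (right). Points are libraries (filled, batch 1; open, batch 2), black lines are means and bars show the SD (n = 3); the mean difference at Ccn2 is 2.33 on the left and -0.33 on the right.

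Covered length was also higher under TGFβ in each pair. As for peak numbers, the share of all windows where this held was not computed. Peaks covered 5188, 10873 and 1522 bp at Ccn1 under TGFβ, and 962, 3341 and 423 bp under vehicle. TGFβ replicate 3 covered less than vehicle replicate 2. Means were 5861 ± 4712 and 1575 ± 1553 bp (SD, n = 3; two-sided exact permutation p = 0.2). At Ccn2 the covered lengths were 3571, 5155 and 542 bp under TGFβ and 1546, 2238 and 0 bp under vehicle. Their means were 3089 ± 2344 and 1261 ± 1146 bp (SD, n = 3; exact permutation p = 0.3). Without TGFβ replicate 2 the differences fell from 4286 to 1780 bp at Ccn1 and from 1828 to 795 bp at Ccn2, and without vehicle replicate 3 to 1197 bp at Ccn2. Without TGFβ replicate 3 they were 6455 and 3102 bp. In the limited lists they were 1693 bp at Ccn1 and 201 bp at Ccn2.

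Ccn1 site 7, on chromosome 3 from 145354074 to 145356787, was the single member site called in all 6 libraries, as were 6.36% of merged sites. It lay in the central part of the window. Its summit held 60, 92 and 39 fragments under TGFβ and 49, 52 and 32 under vehicle. TGFβ was higher in each pair. Only in pair 2 were the intervals apart, at 74.2 to 113 fragments under TGFβ and 38.8 to 68.2 under vehicle. The folds came to 4.94, 8.15 and 3.04 under TGFβ and 4.28, 4.28 and 2.58 under vehicle. In batch 2 both folds were below every batch 1 fold at this site. The median fold over all peaks of a list was lower in batch 2 too. It was 2.60 under TGFβ and 2.42 under vehicle there, and 3.08 to 3.33 in the batch 1 lists.

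The ratio of TGFβ to vehicle fold at Ccn1 site 7 was 1.15, 1.90 and 1.18 in pairs 1, 2 and 3. Within batch 1 the pairs rest on title wording only, and ratios depend on that matching. Over all merged sites called in both lists of a pair, the median ratio was 1.41, 1.52 and 1.11, and the TGFβ fold was the higher at 87.1%, 91.4% and 70.9% of sites. The ratio at Ccn1 was thus below the median in pair 1 and above it in pairs 2 and 3. The strongest peak of the site was 1882, 2714 and 742 bp wide under TGFβ and 962, 1727 and 423 bp under vehicle. A wider TGFβ peak was found at 86.7%, 89.6% and 63.7% of the sites called in both lists of pairs 1, 2 and 3. Summits of the strongest peaks fell between 145355396 and 145355589 in 5 libraries, a span of 193 bp. That of TGFβ replicate 2 lay 365 bp below them, at 145355031. TGFβ replicate 3 had another, weaker peak in the site, with its summit at 145354613 and a fold of 2.13.

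Ccn1 site 9 (145358678 to 145359702) also lay in the central part, 1890 bp above site 7. It was called in all 3 TGFβ libraries and in vehicle replicate 2, not in vehicle replicates 1 and 3. Its summit held 60, 57 and 38 fragments under TGFβ, and 47 in vehicle replicate 2. The intervals of these 4 counts overlapped. The fold was 4.74, 2.95 and 3.08 under TGFβ and 3.88 in vehicle replicate 2. In TGFβ replicate 2 the background at this summit was 18.7 fragments, 1.80 times the lowest of its list, and in the other 3 lists it was 1.00 to 1.11 times the lowest. The fold ratio of pair 2, 0.76, was below 1 although the TGFβ library had more fragments. In the full lists without vehicle replicate 2, it was called in all TGFβ and no vehicle libraries. In lists of equal length the call in TGFβ replicate 2 was lost, and those in TGFβ replicates 1 and 3 and vehicle replicate 2 were left. The lowest −log10 p kept there was 18.0 in TGFβ replicate 2 and 7.33 in vehicle replicate 2.

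Between these, Ccn1 site 8 (145357242 to 145358391) was called in TGFβ replicate 2 and vehicle replicate 2 alone. The summits held 42 and 44 fragments, with folds of 3.77 and 3.63. Sites 7, 8 and 9 were separated by 454 and 286 bp. Both lists of pair 2 had a peak at each of the 3, and TGFβ replicate 2 had a further one just above, at site 10 (145359983 to 145360615). Vehicle replicates 1 and 3 were called at site 7 alone of these 4 sites. In lists of equal length site 8 kept its call in vehicle replicate 2 only.

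Ccn1 site 12 (145390426 to 145391406) was the strongest member site without a vehicle call. It lay 36.0 kb above the centre of the window, on the side of Ddah1, which encodes an enzyme that degrades asymmetric dimethylarginine. TGFβ replicates 1 and 2 had 67 fragments (51.9 to 85.1) and 64 fragments (49.3 to 81.7) at summits 4 bp apart. The folds of 5.51 and 5.70 stood at percentiles 81.2 and 76.8 of their lists by −log10 q. The site was not called in TGFβ replicate 3 or in any vehicle library. In vehicle replicates 1, 2 and 3 the weakest peaks called over the lowest background had 23, 24 and 25 fragments. In TGFβ replicate 3, also without a call, the weakest had 23. Both TGFβ calls remained in the lists of equal length.

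Ccn1 site 3 (145323598 to 145324634) had the same pattern of calls, on the side of Znhit6, with 41 and 54 fragments in TGFβ replicates 1 and 2 and folds of 3.40 and 4.82. In lists of equal length only the call in TGFβ replicate 2 was left. Ccn1 site 2 (145320205 to 145321130) was weaker, with 27 and 23 fragments and summits 710 bp apart. At Ccn1, 7 further sites were called in 1 library each, 6 of them in TGFβ replicate 2 and 1 in TGFβ replicate 1, with 21 to 44 fragments and folds of 1.93 to 3.94.

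**Figure D3:**
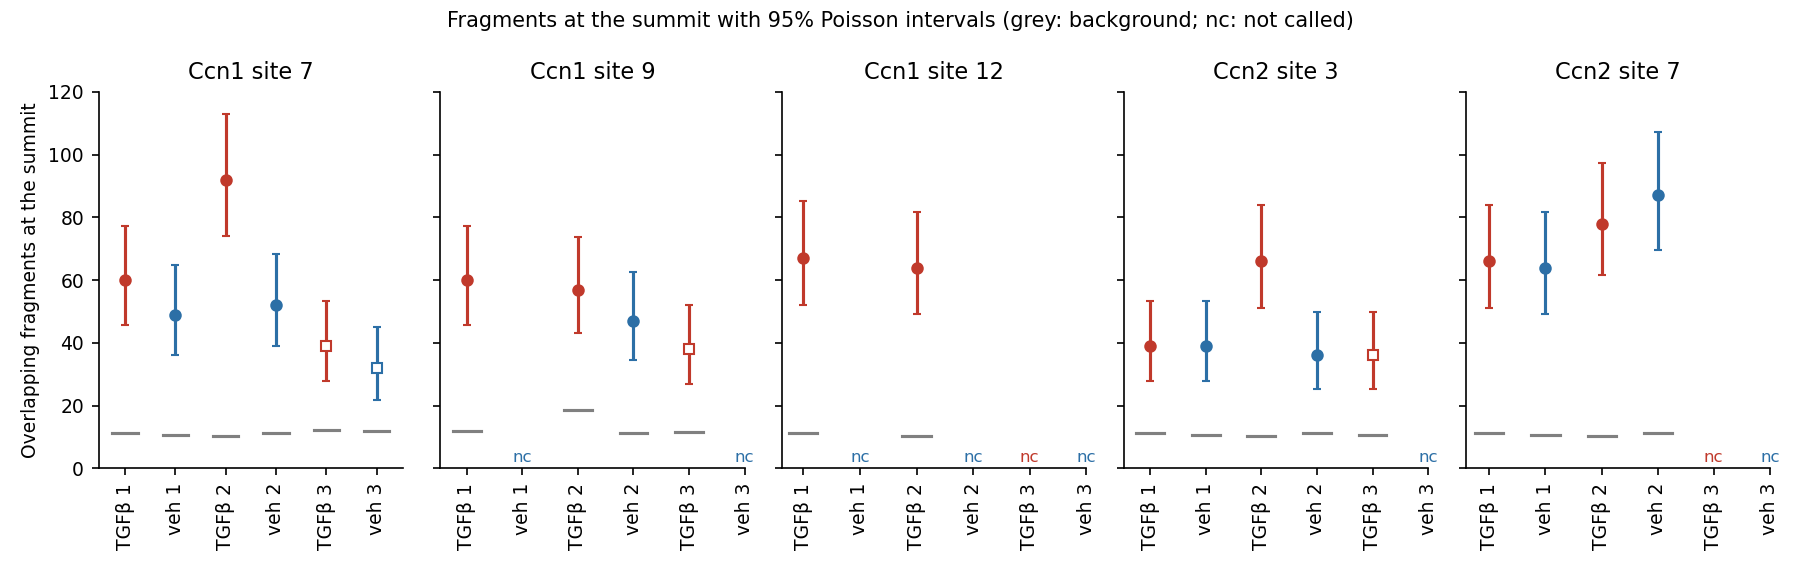
Overlapping fragments at the summit of 5 member sites in each library, with exact Poisson 95% intervals (red, TGFβ; blue, vehicle; open squares, batch 2; grey lines, background; nc, not called). At Ccn1 site 7 the highest value is 92 in TGFβ replicate 2, and at Ccn2 site 7 it is 87 in vehicle replicate 2.

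At Ccn2, site 3 (chromosome 10 from 24471016 to 24473157) lay in the central part of the window. It was called in all libraries other than vehicle replicate 3, a pattern met by 3.71% of merged sites. Its strongest summits held 39, 66 and 36 fragments under TGFβ, and 39 and 36 in the vehicle libraries of batch 1. TGFβ replicate 2 stood above the other 4 libraries, which lay within 3 fragments of each other. Its interval, 51.0 to 84.0, overlapped that of vehicle replicate 1 (27.7 to 53.3) but not that of vehicle replicate 2 (25.2 to 49.8). These counts were not all from the same position. The summits of TGFβ replicate 2 and vehicle replicate 1 lay 24 bp apart. Those of TGFβ replicate 1 and vehicle replicate 2 lay in another part of the site, described below. The folds came to 3.24, 5.87 and 3.20 under TGFβ and 3.43 and 2.99 under vehicle.

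The fold ratio at Ccn2 site 3 was 0.95 in pair 1 and 1.97 in pair 2, on either side of the medians of 1.41 and 1.52 over all sites called in both lists. Widths of the strongest peaks were 1712, 2142 and 542 bp under TGFβ and 326 and 1470 bp under vehicle. Summits fell in 2 groups. The lower group, from 24471559 to 24471702, held those of TGFβ replicates 2 and 3 and vehicle replicate 1. The upper group, from 24472593 to 24472742, held those of TGFβ replicate 1 and vehicle replicate 2, and a weaker peak of vehicle replicate 1 with a fold of 2.91. The groups were 891 bp apart and spanned 143 and 149 bp, and each held both treatments. In both pairs the fold ratio thus set a summit of 1 group against a summit of the other. Within the upper group, the fold was 3.24 in TGFβ replicate 1 and 2.91 at the weaker peak of vehicle replicate 1. In lists of equal length the call in TGFβ replicate 1 was lost and the other 4 were left. The lost call had a −log10 p of 10.5, below the 12.6 kept in its list. The list of vehicle replicate 1, with as many fragments at its summit, was not cut.

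Ccn2 site 7 (24513888 to 24514958) was the strongest site of the Ccn2 window. It lay 39.4 kb above the centre, on the side of Enpp1, which encodes an ectoenzyme that generates pyrophosphate. All 4 batch 1 libraries called it and neither batch 2 library did, a pattern met by 7.07% of merged sites. The summit held 66 and 78 fragments under TGFβ, and 64 and 87 under vehicle. The treatments overlapped, and the highest value was that of vehicle replicate 2. All 4 summits fell within 16 bp, from 24514374 to 24514390.

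Folds at Ccn2 site 7 were 5.43 and 6.93 under TGFβ and 5.57 and 7.11 under vehicle. Their ratios were 0.98 in pair 1 and 0.97 in pair 2. Both pairs were of batch 1 and matched by title wording only, so these ratios depend on that matching. Of all sites called in both lists, 11.5% in pair 1 and 7.35% in pair 2 had a ratio at or below these. The intervals on fold were 4.22 to 6.89 and 5.49 to 8.62 under TGFβ, and 4.31 to 7.09 and 5.71 to 8.75 under vehicle, and overlapped within each pair. Widths were 806 and 896 bp under TGFβ and 755 and 768 bp under vehicle. Within its list the site ranked in the 80.7 and 83.8 percentile of −log10 q under TGFβ and in the 89.2 and 93.4 percentile under vehicle, values that cannot be compared between lists of such different length. It kept its 4 calls at a fold of at least 5 and in lists of equal length.

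**Figure D4:**
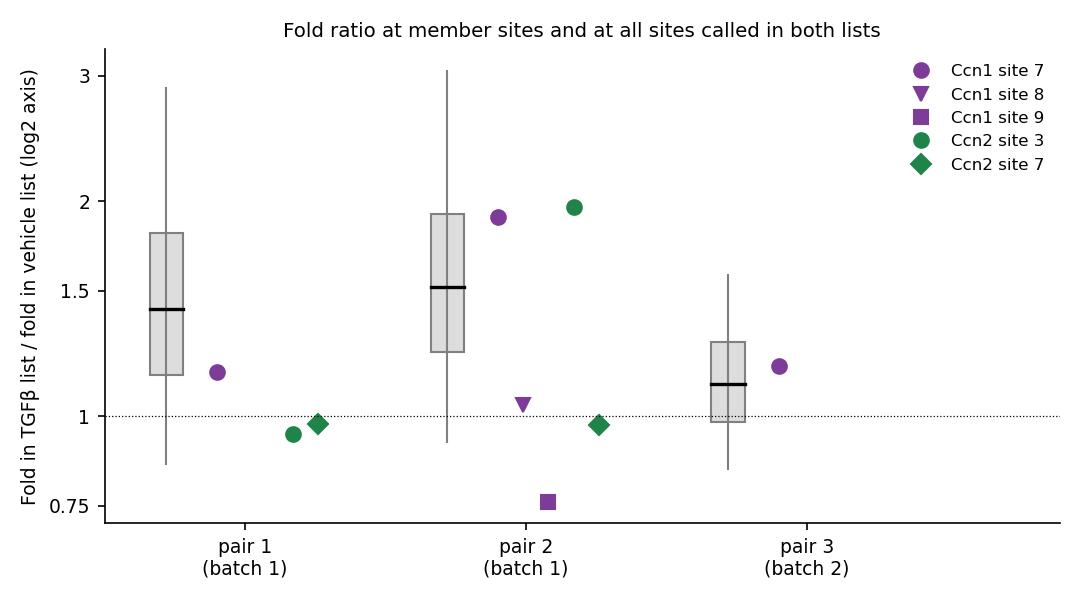
Ratio of the fold in the TGFβ list to that in the vehicle list of each pair (log2 axis), for member sites called in both lists (symbols) and all merged sites called in both (box, quartiles with the median; line, 5th to 95th percentile). Ccn2 site 7 lies at 0.98 and 0.97 in pairs 1 and 2, where the medians of all sites are 1.41 and 1.52. These pairs of batch 1 were matched by title wording only.

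Of the other Ccn2 sites, 2 were called in both batch 1 TGFβ libraries and in no other. Site 2 (24464930 to 24465861) held 34 and 47 fragments in TGFβ replicates 1 and 2, with folds of 2.84 and 4.21 and summits 139 bp apart. Site 5 (24480797 to 24481305) held 35 and 28 fragments, with folds of 2.92 and 2.54. Neither was left in the lists of equal length. The remaining 3 sites were called in 1 library each, 2 in TGFβ replicate 2 and 1 in TGFβ replicate 1, with 23 to 33 fragments.

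Set side by side, both genes had a site in the central part of the window that was called in both treatments and in both batches, Ccn1 site 7 and Ccn2 site 3. At both, TGFβ replicate 2 had the highest summit. Ccn1 site 9, also central, was called in both treatments and both batches too. Its highest count was 60 fragments in TGFβ replicate 1, against 57 in TGFβ replicate 2. Within batch 2, Ccn1 site 7 was called under both treatments. Ccn2 site 3 and Ccn1 site 9 were called there in the TGFβ library and not in the vehicle library. The sites without a vehicle call had 21 to 67 fragments, and apart from Ccn1 site 12 none exceeded 54. The strongest site of the Ccn2 window lay away from the central part, with folds within counting error of each other in the 2 treatments, and was not called in batch 2. No difference between the genes was tested.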

How the data were processed

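RUNX1 ChIP-seq peak lists of 6 libraries of MLE cells were analysed, 1 list per library and not pooled. The submitters' processing notes name DRAGEN, Trimmomatic, Bowtie2 2.5.2, MACS2 and the build GRCm39 (mm39), without settings, and the control library is not given in the sources used here. In the deposited 10-column lists, the authors' values per peak are a fold enrichment (ratio) at the summit, a −log10 p, a −log10 q and a score. The lowest −log10 q lay just above 1 in each list.

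The members, gene lists and tests were chosen with earlier results of these data known. Peaks overlapping by at least 1 bp were merged (Python 3.11.15, pandas 2.3.3). Coordinates are 1-based. With fold taken as (pileup + 1)/(background + 1) and p as the Poisson tail beyond the pileup, a whole-number pileup matched within 0.001 on the −log10 p scale for 99.6% to 99.9% of the peaks of each list. Depth is unknown otherwise. Peak numbers and covered length were compared by two-sided exact permutation over 20 labelings (smallest p 0.1), within batches over 12 (0.167), and by sign flips over 3 pairs (0.25). The pairing follows batch and title wording, and deviations from group means over all merged sites correlated at 0.135, 0.225 and 0.418 in pairs 1, 2 and 3. TGFβ replicate 1, however, correlated more with vehicle replicate 2, at 0.243. Described sites were those called in 4 or more libraries or in both batch 1 TGFβ and no vehicle libraries. Ccn1 site 8 and the comparison of summit groups were added after the values were seen. Code was tested on simulated data. Peaks near related CCN, YAP/TAZ and matricellular genes, and genes most like the members, were not analysed, as the gene table is of GRCm38. All columns of per-sample values were mapped.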

Additional observations from a re-analysis of the deposited data

How the results depend on the processing

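Alternatives were fixed with the tests, other than averaging the batch 1 libraries of a treatment, which was chosen after the data were seen. The higher peak number and covered length with TGFβ kept their direction in all 15 alternatives at Ccn1. At Ccn2 covered length kept it in 15 and peak number in 14. The exception was lists of equal length, where the difference of 2.33 peaks became -0.33. Among the 15, summit windows of 200 bp could not alter peak numbers. The replicate block could alter neither mean difference. Over all alternatives the difference ran from 1.0 to 7.33 peaks at Ccn1 and from -0.33 to 3.83 at Ccn2. With batch 1 averaged it was 4.5 and 2 peaks. Leaving out 1 library gave 2.83 to 7.33 peaks at Ccn1 and 1.33 to 3.83 at Ccn2. With the replicate block (pairs by batch and title wording), the mean paired differences were 5.33 and 2.33 peaks, and 4286 and 1828 bp (exact sign-flip p = 0.25 each), and the block changed no call. No design could reach 0.05, so p-values say nothing about stability.

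The count of sites called in all libraries at Ccn1, 1, fell to 0 at a −log10 q of at least 5, for peaks no wider than 2000 bp, at a fold of at least 5, for summit windows of 200 bp and for peaks covering at least 50% of the site. The bounds of this site, site 7, were those of the 2714 bp peak of TGFβ replicate 2. The 2000 bp limit removed that peak by construction. Peaks of TGFβ replicate 3 and vehicle replicates 1 and 3 were too narrow to cover 50% of it. At Ccn2 this count rose from 0 to 2 in batch 1 only, and ran from 0 to 1 when 1 library was left out. TGFβ-only sites rose from 0 to 3 at Ccn1 and from 0 to 2 at Ccn2 in batch 1 only, by construction with fewer lists. Leaving out 1 library gave 0 to 3 at Ccn1 and 0 to 2 at Ccn2, with the highest counts without TGFβ replicate 3 and a count of 1 at Ccn1 without vehicle replicate 2.

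Without read counts, a site absent from a list can lie just below the threshold.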
